A study of Mus musculus with 12 samples.

Results

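The genes described here are 33 targets of the tumour suppressor p53 and inhibitors of the cell cycle, among 49671 genes counted in a mouse pancreatic stellate cell line with raised or lowered Kitl. They were taken by name from the table of counts: p53 itself (Trp53), the neighbouring inhibitor loci Cdkn2a and Cdkn2b, and 30 genes that p53 is known to switch on in various cell types. All 33 passed the filter on low counts, as did 15271 genes in all.

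p53 is a transcription factor held at low protein levels by the ubiquitin ligase MDM2, which p53 itself induces, and it accumulates when DNA is damaged or growth signals are excessive. Its targets stop the cell cycle (p21, from Cdkn1a), start apoptosis (Bax, Bbc3, Pmaip1), repair DNA (Xpc, Ddb2) or feed back on p53 (Mdm2). Cdkn2a encodes p16Ink4a, an inhibitor of the kinases CDK4 and CDK6, and p19Arf, which restrains MDM2. The Trp53 and Cdkn2a genes are commonly lost when mouse cells become immortal in culture.

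RNA of ImPSC-1, an immortalised line of pancreatic mesenchymal cells, was sequenced in 4 groups of 3 libraries to ask what the stellate cells' own stem cell factor (KITL, the ligand of the receptor KIT) does. The shCtrl cells carried a control hairpin and are labelled wild type. The shKitl cells carried a hairpin that knocks down Kitl, the Egfp_OE cells overexpressed Egfp, and the Kitl_OE cells overexpressed Kitl. All 4 groups are stable derivatives of the same line, grown in the same serum medium; the promoters that drive hairpin and transgene, and whether a derivative is 1 clone, the labels do not say. Nor do they say whether replicate libraries were grown as separate cultures, and the p-values therefore reflect the variation among these libraries alone, which could be technical. The labels also carry a P number for each library, without its meaning: P14 to P16 in shCtrl, P13 to P15 in shKitl, P17 to P19 in Egfp_OE and P18 to P20 in Kitl_OE.

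Each library held between 24979742 and 33517686 counts in genes. Kitl, the targeted gene, was at 25.1, 25.5 and 30.3 CPM (counts scaled to a common library size) in the shKitl libraries and at 73.5, 73.6 and 76.4 CPM in shCtrl, without overlap, although its adjusted p in edgeR was 0.121 (log2 -1.46). It rose in Kitl_OE over Egfp_OE (log2 1.06, edgeR adjusted p = 0.00836), where counts do not separate introduced from endogenous transcripts. Kit was too low to be tested. Stellate and mesenchymal markers were present in every group (7 of 7 above 0), in TPM (the deposited length-scaled transcript measure). Over the 12 libraries, 5 epithelial markers summed to 3.42 to 18.2 TPM, mostly Krt19, with Epcam at 0 to 0.49; 3 leukocyte markers to 5.15 to 32.9 TPM, through Cd68 and Lyz2, with Ptprc at 0 to 0.01; and 6 mesothelial markers to 15.5 to 608 TPM. Egfp_OE replicate 2 stood apart: spike-in RNA took 1.35% of its counts against 0.446% to 0.684% elsewhere, and several members were far above (Cdkn2a, Bax, Gadd45a) or below (Aen, Rrm2b) the other Egfp_OE libraries. Values without it stand beside some of the estimates below, not all that it moved.

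p53 binds a pair of 10-base elements, here called decamers, separated by at most 13 bases. Windows of 300 bases around the annotated start (250 before to 50 after; RefSeq, GRCm38.p6) were available for 24 of the 33 members and were searched on both strands for the p53 half-site consensus, which is its own reverse complement. A match was found for 10 of these 24 genes (41.7%), against 9.55% of all 27025 genes with a window. A gene counted if any of its windows held a match. A pair of decamers within the allowed gap was found in 1 member window, of Cdkn1a, and in 24 of all 32851 windows (0.0731%). The other Cdkn1a window, at a start further downstream, held no match. Sesn1 and Polk also had a window with a match and a window without. The upstream ends of 3 windows are shown for members that rose with Kitl overexpression, 220 bases each, 5′ to 3′, with strict matches in capitals. Near matches are not marked. In Cdkn1a the 10 bases right after the second match, in lower case, depart from the consensus only at their first base. They adjoin that match more closely than the first strict match does, and which pair p53 binds was not tested.
Cdkn1a, chr17:29090729-29090948, plus strand, matches at positions 178 and 200 of the window, 12 bases between them: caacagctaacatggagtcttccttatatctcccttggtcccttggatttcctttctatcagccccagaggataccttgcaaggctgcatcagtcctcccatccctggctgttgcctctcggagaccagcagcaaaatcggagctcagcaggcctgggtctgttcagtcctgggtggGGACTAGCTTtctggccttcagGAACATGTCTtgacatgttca
Mdm2, chr10:117710789-117711008, minus strand, match at position 65: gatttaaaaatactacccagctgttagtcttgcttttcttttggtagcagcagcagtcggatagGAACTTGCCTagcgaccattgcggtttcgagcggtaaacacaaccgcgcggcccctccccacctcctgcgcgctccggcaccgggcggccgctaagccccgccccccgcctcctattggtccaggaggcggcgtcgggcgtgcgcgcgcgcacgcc
Ccng1, chr11:40755317-40755536, minus strand, match at position 66: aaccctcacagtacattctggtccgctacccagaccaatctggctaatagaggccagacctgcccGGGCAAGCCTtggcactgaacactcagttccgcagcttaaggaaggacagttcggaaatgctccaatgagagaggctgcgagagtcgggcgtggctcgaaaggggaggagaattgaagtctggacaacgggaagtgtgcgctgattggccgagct
The other matches were GGACTTGCCC in Trp53, AGGCAAGCTT in Bax, GGGCTAGCCC in Gadd45a, GGGCTTGTCC in Aen, GGGCATGCCC in Ei24, AAGCTTGTTT in Sesn1 and GAACTAGCCT in Polk. They occurred both in members that rose with Kitl overexpression (Aen, Sesn1, Polk) and in members that did not pass the test (Trp53, Bax, Gadd45a, Ei24). No strict match lay in the windows of Cdkn2a, Cdkn2b, Plk2, Eda2r, Gdf15 or Psrc1, which says only that these letters are not in these windows.

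On the deposited TPM scale, which is per gene length, Cdkn2a was the most abundant member. Its mean over the 12 libraries was 1284 TPM (range 562 to 3634), rank 82 of the 15271 genes tested. Cdkn1a followed at 436 TPM, then Bax at 373 TPM, Ccng1 at 299 TPM and Phlda3 at 268 TPM. Trp53 itself averaged 155 TPM (range 110 to 211), rank 1093, so that both the p53 and the Cdkn2a transcripts were abundant in this immortalised line. The lowest members were Pvt1 at 6.62 TPM, Perp at 5.94 TPM and Ddb2 at 4.64 TPM. The median member stood at 37.1 TPM and the median gene tested at 14.8 TPM.

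**Figure D1:**
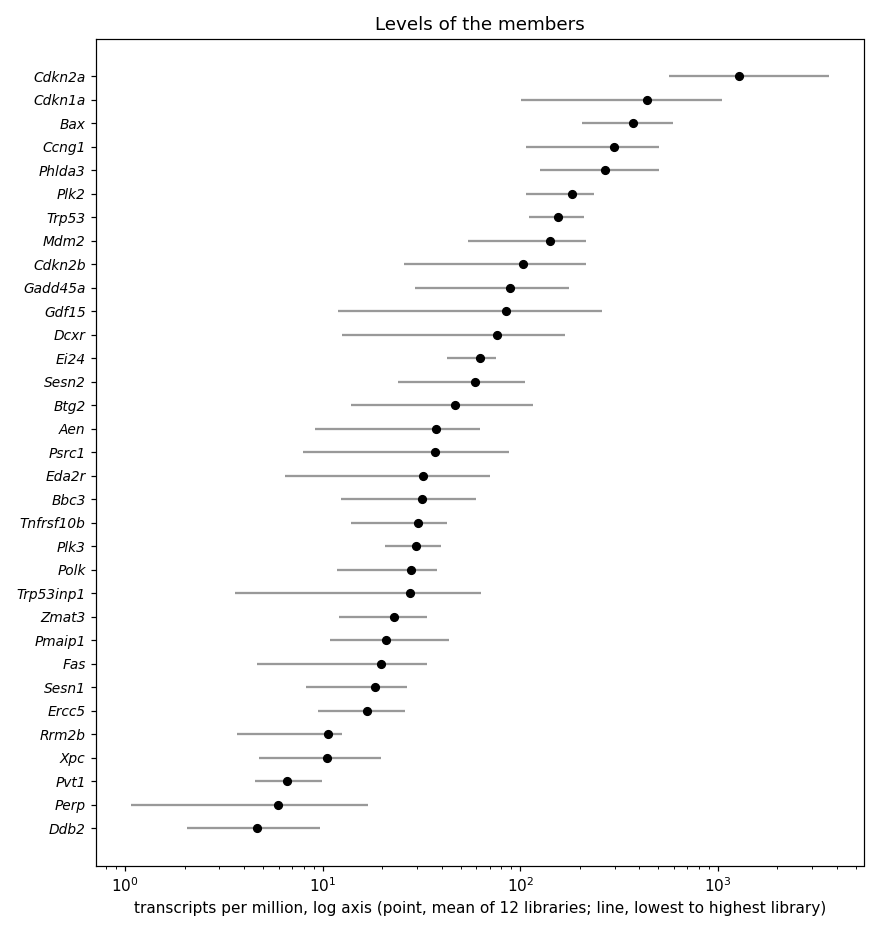
Level of each member in TPM on a log axis; the point is the mean of the 12 libraries and the line runs from the lowest to the highest library. Cdkn2a is highest, with a mean of 1284, and Ddb2 lowest, with a mean of 4.64; the Trp53 line is short, 110 to 211.

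The range over libraries differed much between members. The highest library held 21.7 times the TPM of the lowest for Gdf15, 17.6 times for Trp53inp1, 15.9 times for Perp and 10.4 times for Cdkn1a, but 1.91 times for Trp53, 1.92 times for Plk3 and 1.78 times for Ei24. These last 3 varied least over the 12 libraries.

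In the overexpression comparison, Kitl_OE against Egfp_OE, 19 of the 33 members rose, 1 fell (Plk2) and 13 did not pass the test (edgeR's quasi-likelihood test, adjusted p under 0.05 over all genes tested). Among all genes tested 34.3% were called, 15.4% higher and 18.9% lower. The members' median log2 fold change was 1.05 and that of all genes -0.07. In 28 of the 33 members the Kitl_OE libraries did not overlap the Egfp_OE libraries (24 higher, 4 lower), against 50.5% of all genes. Of the 15271 genes tested, 3801 lay higher and 3915 lower without overlap. For 12 members all 3 Kitl_OE libraries lay above all 9 others (Cdkn1a, Ccng1, Psrc1, Mdm2, Phlda3, Sesn2, Eda2r, Aen, Xpc, Rrm2b, Gdf15 and Pvt1), against 13.7% of all genes, and for 3 (Trp53, Plk2 and Pmaip1) they lay below all 9, against 13.8% of all genes.

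Other things moved with Kitl_OE. The summed level of the stellate and mesenchymal markers ran from 11320 to 13809 TPM in Kitl_OE and from 1960 to 2928 TPM in Egfp_OE (4 of 7 rose, 1 fell). That of 6 mesothelial markers ran from 362 to 608 TPM against 15.5 to 20.2 TPM (5 of 5 tested rose). The 3 leukocyte markers summed to 21.7 to 32.9 TPM against 7.46 to 8.77 TPM, with Lyz2 called higher, Cd68 not called and Ptprc at or near 0. The 3 endothelial markers summed to 6.91 to 8.64 TPM against 0.969 to 1.81 TPM, with Kdr called higher and Pecam1 and Cdh5 too low to be tested, and the 5 epithelial markers to 4.30 to 15.5 TPM against 4.36 to 6.47 TPM. The part of these shifts in the result was not tested, and in bulk RNA fewer cells of a type and less RNA per cell cannot be told apart.

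**Figure D2:**
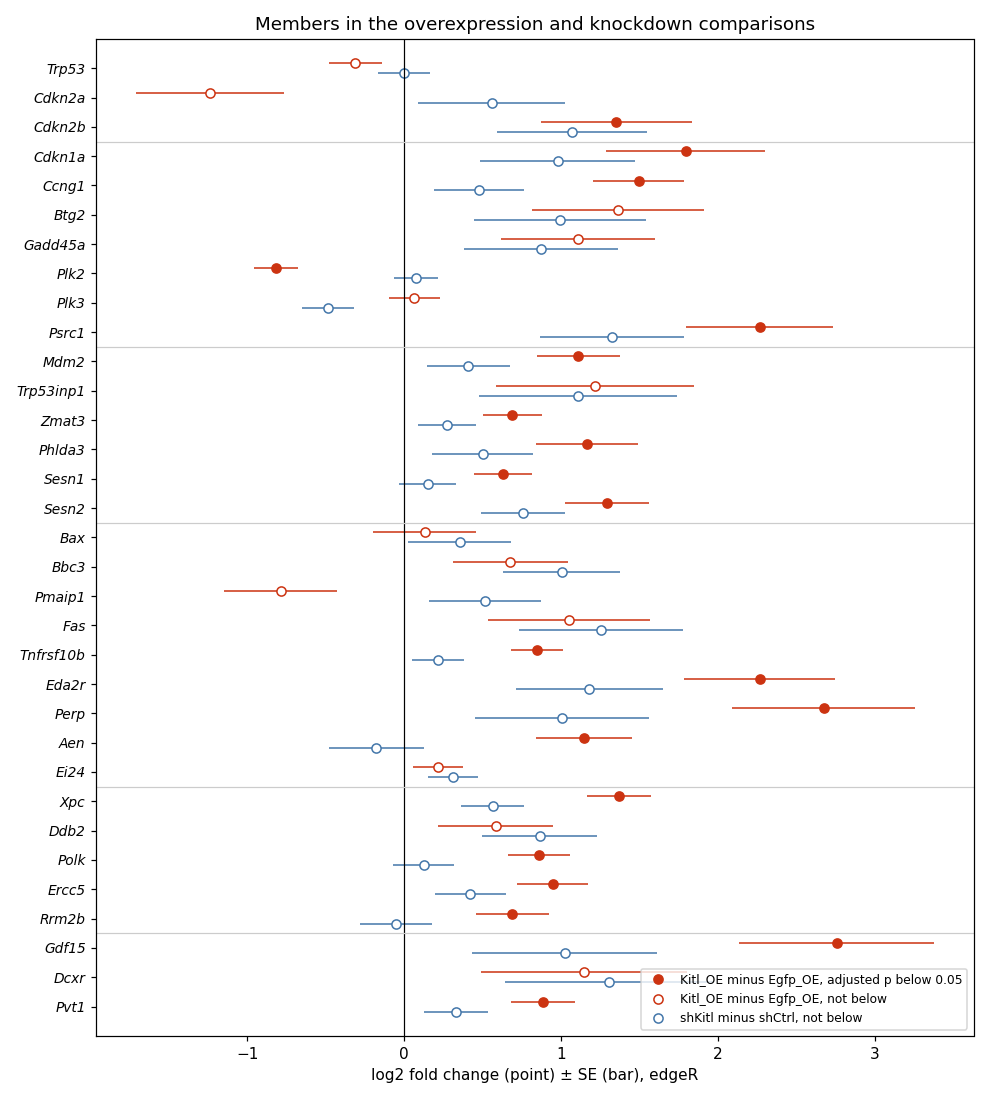
Log2 fold change of each member (point) with its standard error (bar), red for Kitl_OE minus Egfp_OE and blue for shKitl minus shCtrl, filled where the edgeR adjusted p was below 0.05; grey lines separate the roles. In red, 19 filled points lie right of 0 and 1 (Plk2) left of it; no blue point is filled, and 29 of the 33 blue points lie right of 0.

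Trp53 (ENSMUSG00000059552, chromosome 11, 69580359 to 69591873, plus strand, GRCm38) stood at 199, 247 and 246 CPM in shCtrl, 231, 184 and 276 CPM in shKitl, 193, 228 and 222 CPM in Egfp_OE and 165, 172 and 181 CPM in Kitl_OE. The Kitl_OE libraries were the lowest of the 12 and did not overlap Egfp_OE, but the difference did not pass the test (log2 -0.31, SE 0.17, edgeR adjusted p = 0.174). Group means ran from 172.7 ± 7.71 CPM in Kitl_OE to 230.7 ± 27.2 CPM in shCtrl (SD, n = 3 each), and the 3 groups other than Kitl_OE did not differ beyond their spread.

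Cdkn2a (ENSMUSG00000044303, chromosome 4, 89274471 to 89294653, minus strand), whose counts do not separate p16Ink4a from p19Arf, stood at 406, 271 and 233 CPM in shCtrl, 428, 614 and 299 CPM in shKitl, 481, 1872 and 569 CPM in Egfp_OE and 436, 479 and 324 CPM in Kitl_OE. Egfp_OE replicate 2 was far above the other 11 libraries, and the Kitl_OE libraries overlapped shCtrl and shKitl but lay just below the other Egfp_OE libraries. The overexpression difference did not pass the test (log2 -1.24, SE 0.47, edgeR adjusted p = 0.0615) and came to -0.33 (adjusted p = 0.397) without Egfp_OE replicate 2. It passed without Egfp_OE replicate 1 (-1.56, adjusted p = 0.0249) or replicate 3 (-1.51, adjusted p = 0.0382), which leave replicate 2 in.

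Cdkn2b, which encodes the CDK4 and CDK6 inhibitor p15Ink4b and lies 11645 bases from Cdkn2a (ENSMUSG00000073802, chromosome 4, 89306299 to 89311039), stood at 41.4, 21.3 and 12.7 CPM in shCtrl, 53.2, 76.6 and 28.4 CPM in shKitl, 27.7, 51.9 and 20.2 CPM in Egfp_OE and 91.3, 102 and 61.2 CPM in Kitl_OE. The 3 Kitl_OE values were above all Egfp_OE values and overlapped shKitl. It rose in Kitl_OE (log2 1.35, SE 0.48, edgeR adjusted p = 0.0477), a call at the edge of the threshold. It was lost without shCtrl replicate 2, shKitl replicate 1, Egfp_OE replicates 1 or 3, or Kitl_OE replicates 1 or 2 (adjusted p 0.0538 to 0.135). It was kept without Egfp_OE replicate 2, the highest of its group. In all the call held in 16 of 27 alternative settings, and over these 27 the log2 fold change ran from 1.10 to 1.84. The neighbouring loci had estimates of opposite sign against Egfp_OE.

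**Figure D3:**
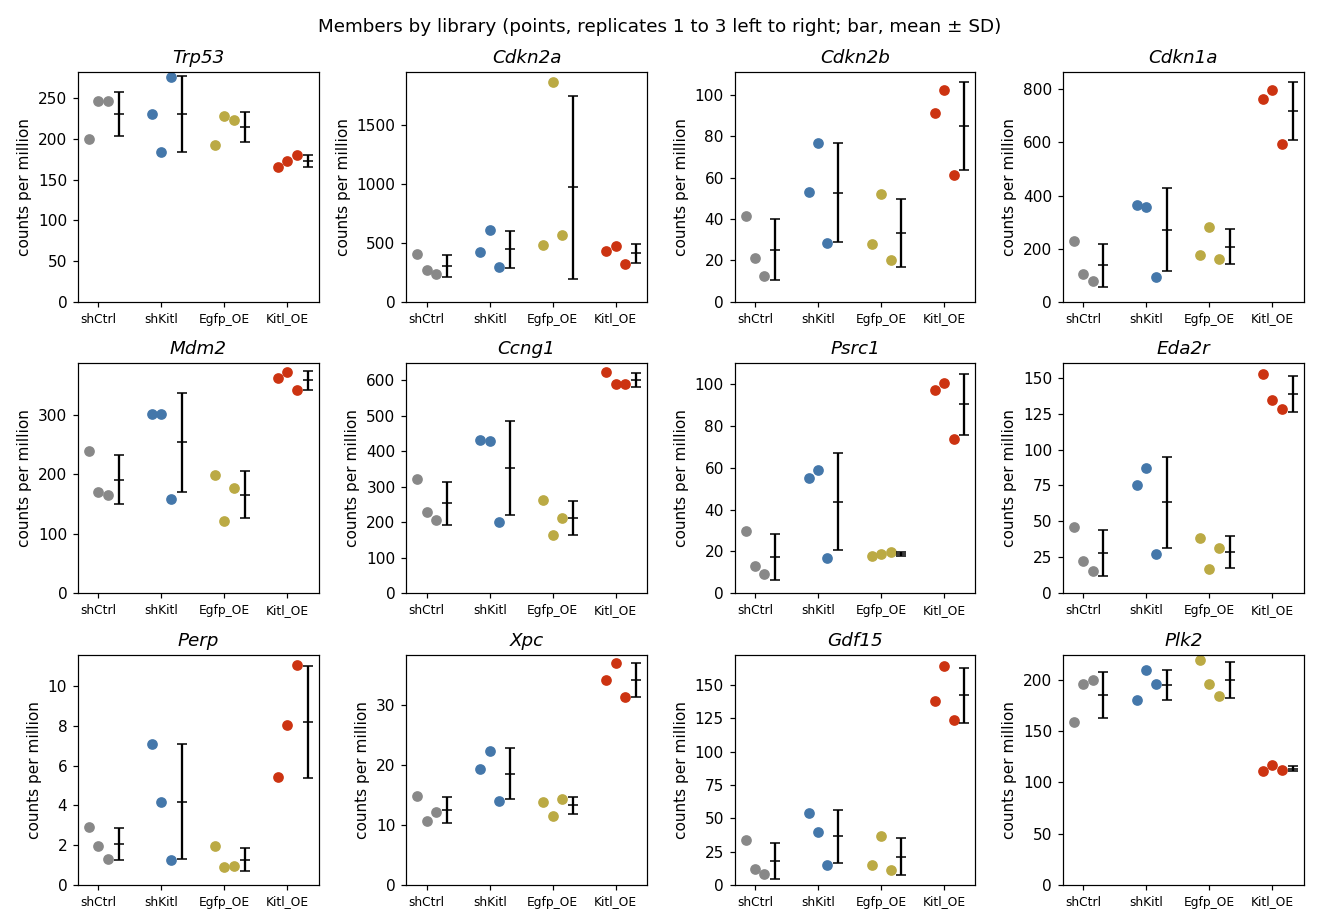
CPM of 12 members in each library (points, replicates 1 to 3 from left to right within a group) with the group mean and SD (bar beside the points). Kitl_OE is the highest group for 9 of the 12 and the lowest for Trp53 and Plk2, while 1 library, Egfp_OE replicate 2, is far above the rest for Cdkn2a.

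Of the 7 members grouped under cell cycle arrest, 3 rose in Kitl_OE, 1 fell and 3 did not pass the test. Among all genes 15.4% rose and 18.9% fell. The group is broad: the riser Psrc1 encodes a microtubule-binding protein, and Plk2 and Plk3 encode kinases, so the count is not one of inhibitors alone. Cdkn1a (ENSMUSG00000023067, chromosome 17, 29090976 to 29100727), whose product p21 inhibits cyclin-dependent kinases, stood at 229.8, 105 and 78.9 CPM in shCtrl, 366, 358 and 91.9 CPM in shKitl, 176, 283 and 161 CPM in Egfp_OE and 764, 796 and 593 CPM in Kitl_OE. All Kitl_OE libraries were above every other library, and the hairpin lines spread over a wide range below them. The rise over Egfp_OE was 3.47-fold (log2 1.80, SE 0.51, edgeR adjusted p = 0.0176). It had an adjusted p = 0.0534 without Egfp_OE replicate 1 and 0.0577 without replicate 3, and a log2 fold change of 2.10 without replicate 2. The call was also lost without a filter on low counts and at matched P numbers.

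Ccng1 (ENSMUSG00000020326, chromosome 11, 40748552 to 40755311), an early p53 target that encodes cyclin G1, stood at 323, 230.1 and 207 CPM in shCtrl, 431, 429 and 199.9 CPM in shKitl, 262, 165 and 212 CPM in Egfp_OE and 624, 589.6 and 588 CPM in Kitl_OE. The 3 Kitl_OE values were close to each other and above all others. The rise was 2.82-fold (log2 1.5, SE 0.29, edgeR adjusted p = 0.00258). Psrc1 (ENSMUSG00000068744, chromosome 3, 108383839 to 108388231), which encodes a p53-regulated microtubule-binding protein, stood at 29.8, 13.1 and 9.45 CPM in shCtrl, 55.4, 58.8 and 17.1 CPM in shKitl, 17.9, 18.7 and 19.7 CPM in Egfp_OE and 97.0, 101 and 73.6 CPM in Kitl_OE. The Egfp_OE values were nearly equal and the Kitl_OE values were the highest. It rose 4.81-fold (log2 2.27, SE 0.47, edgeR adjusted p = 0.00374).

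Plk2 (ENSMUSG00000021701, chromosome 13, 110395046 to 110400844), a polo-like kinase of G1 and the S-phase checkpoint that p53 can induce, was the only member to fall. It stood at 159, 196 and 200.3 CPM in shCtrl, 180.3, 209.6 and 196 CPM in shKitl, 219, 196 and 185 CPM in Egfp_OE and 111, 117 and 112 CPM in Kitl_OE. The 3 Kitl_OE values lay in a narrow band below all 9 others, which overlapped each other. The fall was to 0.568 of the Egfp_OE level (log2 -0.82, SE 0.14, edgeR adjusted p = 0.00123). It was no longer called with libraries scaled to spike-in RNA (adjusted p = 0.204) or at matched P numbers.

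Btg2, an antiproliferative gene, had a log2 fold change of 1.36 (SE 0.55, edgeR adjusted p = 0.075) with no overlap of the libraries. It passed in 6 of 27 alternative settings, among them without shKitl replicate 3 (edgeR adjusted p = 0.0299) or Kitl_OE replicate 3 (0.0474). Gadd45a, a growth arrest gene induced by DNA damage, stood at 38.6, 21.5 and 18.3 CPM in shCtrl, 51.5, 58.2 and 34.1 CPM in shKitl, 25.4, 91.4 and 21.0 CPM in Egfp_OE and 107, 106 and 83.2 CPM in Kitl_OE. Without Egfp_OE replicate 2, which alone of its group reached the Kitl_OE range, the log2 fold change moved from 1.11 (adjusted p = 0.101) to 2.11 (adjusted p = 0.000842). An antisense neighbour, E230016M11Rik, shares 337 bases of exon with Gadd45a, and its reads cannot be told apart without strand. Plk3, a stress-responsive polo-like kinase gene, had a log2 fold change of 0.06 (SE 0.16).

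Of the 6 members that feed back on p53 or on its signals, 5 rose in Kitl_OE, where 15.4% of all genes rose. Trp53inp1, a p53 cofactor, did not pass the test (log2 1.22, SE 0.63, edgeR adjusted p = 0.159). In all 6 the Kitl_OE libraries lay above the Egfp_OE libraries, as they did in 3801 of the 15271 genes tested. Mdm2 (ENSMUSG00000020184, chromosome 10, 117688875 to 117710758) stood at 238, 170.2 and 165 CPM in shCtrl, 302, 301 and 158 CPM in shKitl, 199, 121 and 177 CPM in Egfp_OE and 361, 371 and 340.4 CPM in Kitl_OE. The Kitl_OE values were the highest of all, with 2 shKitl libraries next. The rise was 2.16-fold (log2 1.11, SE 0.27, edgeR adjusted p = 0.00816) and was lost only when scaled to spike-in RNA (adjusted p = 0.13), among 27 alternatives.

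Phlda3, which encodes an inhibitor of AKT signalling, stood at 112, 78.1 and 69.6 CPM in shCtrl, 159.5, 134 and 73.6 CPM in shKitl, 84.2, 168 and 85.9 CPM in Egfp_OE and 261, 267 and 231 CPM in Kitl_OE. Kitl_OE was highest and Egfp_OE replicate 2 was apart from its group, nearer to Kitl_OE. It rose by 1.17 on the log2 scale (SE 0.33, edgeR adjusted p = 0.0168), with adjusted p = 0.0568 and 0.0582 without Egfp_OE replicate 1 and 3. Sesn2, a sestrin that restrains mTORC1 under stress, stood at 57.9, 36.5 and 29.6 CPM in shCtrl, 67.5, 89.9 and 52.4 CPM in shKitl, 52.3, 37.7 and 52.7 CPM in Egfp_OE and 124, 125 and 101 CPM in Kitl_OE. Kitl_OE was again above all 9 other libraries, with 1 shKitl library next (log2 1.29, SE 0.27, edgeR adjusted p = 0.00379).

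The other risers of this role changed less. Sesn1, the related sestrin, stood at 26.9, 25.9 and 22.6 CPM in shCtrl, 24.9, 33.6 and 25.0 CPM in shKitl, 20.3, 14.3 and 18.7 CPM in Egfp_OE and 30.2, 27.6 and 24.7 CPM in Kitl_OE. The Kitl_OE values were above Egfp_OE but within the range of the hairpin lines, where Egfp_OE was low. It rose by 0.63 (SE 0.18, edgeR adjusted p = 0.0202) and lost the call without Kitl_OE replicate 1 (0.068) or 2 (0.0562). Zmat3, which encodes an RNA-binding regulator of splicing, stood at 83.1, 78.0 and 81.9 CPM in shCtrl, 99.8, 122 and 71.6 CPM in shKitl, 72.1, 60.5 and 68.3 CPM in Egfp_OE and 118, 112 and 93.8 CPM in Kitl_OE. Here too 1 shKitl library exceeded Kitl_OE and Egfp_OE was the lowest group (log2 0.69, SE 0.19, edgeR adjusted p = 0.0147).

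Of the 9 members with roles in apoptosis, 4 rose in Kitl_OE, where 15.4% of all genes rose, and 5 did not pass the test. The 4 were Eda2r, Tnfrsf10b, Perp and Aen. Eda2r (ENSMUSG00000034457, chromosome X, 97333840 to 97377216), a receptor of the TNF receptor family, stood at 46.2, 22.3 and 15.3 CPM in shCtrl, 75.7, 87.1 and 27.3 CPM in shKitl, 38.6, 16.6 and 31.2 CPM in Egfp_OE and 153, 135 and 128 CPM in Kitl_OE. The lowest Kitl_OE value was above the highest of the other 9 libraries. It rose 4.81-fold (log2 2.27, SE 0.48, edgeR adjusted p = 0.00443).

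Tnfrsf10b, the mouse TRAIL death receptor, stood at 31.8, 31.0 and 33.2 CPM in shCtrl, 38.4, 42.8 and 30.4 CPM in shKitl, 25.3, 19.3 and 20.3 CPM in Egfp_OE and 42.1, 38.8 and 35.9 CPM in Kitl_OE. Kitl_OE was above Egfp_OE, the lowest group, and overlapped shKitl (log2 0.85, SE 0.17, edgeR adjusted p = 0.00259). Perp (ENSMUSG00000019851, chromosome 10, 18845020 to 18857073), a membrane protein of desmosomes and apoptosis, was low, at 2.93, 1.97 and 1.31 CPM in shCtrl, 7.07, 4.20 and 1.27 CPM in shKitl, 1.95, 0.922 and 0.940 CPM in Egfp_OE and 5.45, 8.06 and 11.1 CPM in Kitl_OE. The Kitl_OE libraries exceeded Egfp_OE without overlap and differed among themselves. The rise was 6.39-fold (log2 2.68, SE 0.58, edgeR adjusted p = 0.00491).

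Aen, which encodes an apoptosis-enhancing nuclease, stood at 69.3, 67.0 and 68.7 CPM in shCtrl, 72.6, 54.0 and 54.6 CPM in shKitl, 62.9, 23.2 and 66.7 CPM in Egfp_OE and 109, 109 and 121 CPM in Kitl_OE. The Kitl_OE values were the highest and Egfp_OE replicate 2 the lowest. The log2 fold change was 1.15 (SE 0.31, edgeR adjusted p = 0.014) and 0.81 (adjusted p = 0.00173) without that library.

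The BCL2-family genes were not called. Bax, the pore-forming effector, stood at 153, 128 and 114 CPM in shCtrl, 217, 157 and 131 CPM in shKitl, 159, 411 and 172 CPM in Egfp_OE and 285, 292 and 236 CPM in Kitl_OE. Egfp_OE replicate 2 was the highest of the 12 and Kitl_OE came next. The log2 fold change was 0.13 (SE 0.33, edgeR adjusted p = 0.786) and 0.72 (adjusted p = 0.0203) without that library, a call that the library decides. The BH3-only genes Bbc3 (PUMA) and Pmaip1 (NOXA) had log2 fold changes of 0.68 (SE 0.37, adjusted p = 0.178) and -0.79 (SE 0.36, adjusted p = 0.11). Pmaip1 stood at 28.0, 14.4 and 13.2 CPM in shCtrl, 28.8, 36.3 and 14.5 CPM in shKitl, 19.7, 22.3 and 13.4 CPM in Egfp_OE and 10.97, 11.5 and 9.59 CPM in Kitl_OE. Its Kitl_OE libraries were the lowest of all 12. Fas, the receptor of FAS ligand, and Ei24 had 1.05 (SE 0.52, adjusted p = 0.137) and 0.21 (SE 0.16, adjusted p = 0.323).

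Of the 5 members of DNA repair and nucleotide supply, 4 rose in Kitl_OE, against 15.4% of all genes. Xpc (ENSMUSG00000030094, chromosome 6, 91489305 to 91515888), the damage sensor of global nucleotide excision repair, had the smallest adjusted p of all members and stood at 14.8, 10.6 and 12.1 CPM in shCtrl, 19.3, 22.3 and 13.9 CPM in shKitl, 13.8, 11.5 and 14.3 CPM in Egfp_OE and 34.0, 36.9 and 31.3 CPM in Kitl_OE. Kitl_OE was above all other libraries, and shKitl held the next highest values. The rise was 2.58-fold (log2 1.37, SE 0.20, edgeR adjusted p = 0.000496). Ddb2, which works with it in damage recognition, did not pass the test (log2 0.58, SE 0.37, adjusted p = 0.243); it shares 652 bases of exon with the opposite-strand gene Acp2.

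Polk, a polymerase that copies past damaged bases, stood at 40.0, 34.4 and 40.6 CPM in shCtrl, 42.3, 50.3 and 32.8 CPM in shKitl, 33.3, 22.2 and 30.5 CPM in Egfp_OE and 53.9, 55.6 and 46.8 CPM in Kitl_OE. Ercc5, the XPG endonuclease of excision repair, stood at 30.5, 23.7 and 21.4 CPM in shCtrl, 36.8, 42.0 and 22.5 CPM in shKitl, 27.5, 24.3 and 23.7 CPM in Egfp_OE and 52.1, 52.3 and 41.2 CPM in Kitl_OE. In both, Kitl_OE lay above Egfp_OE without overlap and overlapped shKitl. The log2 fold changes were 0.86 (SE 0.20, edgeR adjusted p = 0.00617) and 0.95 (SE 0.23, adjusted p = 0.00825).

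Rrm2b, the p53-inducible ribonucleotide reductase subunit, stood at 23.4, 22.8 and 26.2 CPM in shCtrl, 20.4, 24.3 and 25.0 CPM in shKitl, 21.9, 10.5 and 19.2 CPM in Egfp_OE and 29.7, 27.0 and 26.4 CPM in Kitl_OE. Egfp_OE replicate 2 was far below the rest, and Kitl_OE was only just above the highest hairpin library. The rise of 0.69 (SE 0.23, edgeR adjusted p = 0.0382) came to 0.45 (adjusted p = 0.0235) without that library. The call was lost without shCtrl replicate 2 or any 1 of the Kitl_OE libraries (adjusted p 0.0523 to 0.109). In all it held in 13 of 27 alternative settings, the fewest of the called members.

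Of the last 3 members, Gdf15 and Pvt1 rose in Kitl_OE. Gdf15 (ENSMUSG00000038508, chromosome 8, 70629393 to 70632456), a secreted stress cytokine of the TGF-beta family, stood at 33.5, 12.1 and 7.84 CPM in shCtrl, 54.3, 39.4 and 15.1 CPM in shKitl, 15.1, 36.8 and 11.2 CPM in Egfp_OE and 138, 165 and 124 CPM in Kitl_OE. Kitl_OE was far above every other library. The rise of 6.76-fold was the largest of the members (log2 2.76, SE 0.62, edgeR adjusted p = 0.00572), and its log2 was 3.45 without Egfp_OE replicate 2. Other stress pathways are also known to induce Gdf15.

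Pvt1 (ENSMUSG00000097039, chromosome 15, 62037986 to 62378096), a long noncoding RNA that begins 47611 bases beyond Myc, stood at 12.7, 11.2 and 11.2 CPM in shCtrl, 16.7, 16.1 and 11.4 CPM in shKitl, 10.9, 16.2 and 11.8 CPM in Egfp_OE and 25.8, 23.7 and 22.3 CPM in Kitl_OE. Kitl_OE was above all others (log2 0.88, SE 0.20, edgeR adjusted p = 0.00625). Myc itself fell in the same comparison, from 110.4 ± 25.4 to 64.0 ± 3.46 CPM (SD, n = 3 each; log2 -0.79, edgeR adjusted p = 0.0127), a call lost without Kitl_OE replicate 1 or 2. Dcxr, an enzyme of xylulose metabolism, did not pass the test (log2 1.15, SE 0.66, edgeR adjusted p = 0.198), nor without Egfp_OE replicate 2 (1.90, adjusted p = 0.0603).

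The calls of Ccng1, Psrc1, Eda2r, Perp, Xpc and Gdf15 held under all 27 alternative settings. Some members not called in the main fit passed in a few settings: Btg2 and Gadd45a in 6, Cdkn2a in 4, Fas in 3 and Trp53inp1 in 2. Bax, Bbc3, Pmaip1 and Dcxr passed in 1 each, and Trp53, Plk3, Ei24 and Ddb2 in none. Without Egfp_OE replicate 2, 22 members were called in place of 20. With only the libraries at P numbers that both compared lines have, 11 were called; the calls lost were Cdkn2b, Cdkn1a, Plk2, Zmat3, Phlda3, Sesn1, Aen, Rrm2b and Pvt1. With spike-in scaling 11 were called, and Plk2, Mdm2, Zmat3, Sesn1, Sesn2, Tnfrsf10b, Aen, Polk, Ercc5 and Rrm2b lost theirs. The members' median log2 fold change was 1.03 with that scaling and 1.05 in the main fit.

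Genes around p53 and the cell cycle, listed beside the members, moved in part. Of 25 further p53 targets, 8 rose and 2 fell in Kitl_OE (edgeR), where 15.4% of all genes rose and 18.9% fell. Their median log2 fold change was 0.61. The largest rises were in Pltp, which transfers phospholipids (3.21), the sulfatase gene Sulf2 (2.67), the epoxide hydrolase gene Ephx1 (2.03) and Zfp365 (1.17). Steap3, a metalloreductase gene (-1.10), and Dram1, an autophagy gene (-0.52), fell. Without Kitl_OE replicate 1 or 2, 6 of the 25 were called. Of 13 tested p53 regulators 1 rose and 2 fell: the checkpoint kinase genes Chek2 (0.53) and Chek1 (-0.85), and Trp63 (-3.41), which was below 1 CPM in both lines. Without Egfp_OE replicate 2, 7 regulators were called, and without Kitl_OE replicate 1, 1 was.

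Of 4 other CDK inhibitor genes, Cdkn1c (p57) fell (log2 -6.30, SE 1.01, edgeR adjusted p = 0.0008) and the other 3 did not pass. It stood at 11.2, 7.96 and 6.91 CPM in shCtrl, 9.77, 40.9 and 7.14 CPM in shKitl, 27.7, 212 and 29.0 CPM in Egfp_OE and 1.48, 1.10 and 0.819 CPM in Kitl_OE. Egfp_OE replicate 2 was again the highest, yet all Kitl_OE values were below the other 9. Without that library the log2 fold change was -4.63 (edgeR adjusted p = 0.000694). DESeq2 gave it no adjusted p.

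Of 7 tested neighbours and repressors of the Cdkn2a locus, 1 rose and 4 fell, where 15.4% of all genes rose and 18.9% fell. Cbx7, a Polycomb subunit, rose (1.13), and the repressors Tbx3 (-4.14) and Tbx2 (-2.42), the neighbour Mtap (-0.51) and the Polycomb methyltransferase gene Ezh2 (-0.47) fell; Tbx2 and Tbx3 were below 3 CPM in every group mean. Of these 5 calls, 3 were left without shCtrl replicate 2 or 3, shKitl replicate 1, Egfp_OE replicate 3 or any 1 Kitl_OE library. Of 20 proliferation genes, 1 rose (Mcm2, 0.58) and 4 fell, a share near the 18.9% of all genes that fell: Ccnb2 (-1.48), Ccna2 (-1.21), Top2a (-0.92) and Mcm3 (-0.49). The other 15, Mki67 among them, did not pass the test, and 1 of the 20 was called without Kitl_OE replicate 1 or 2 and 3 without replicate 3.

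In the knockdown comparison, shKitl against shCtrl, no member was called by edgeR, and 0% of all genes were; 9 members (27.3%) had an unadjusted p under 0.05, against 15.8% of all genes. DESeq2 called 0 members and 2.8% of the genes to which it gave an adjusted p. The estimates leaned upward all the same, with 29 of 33 above 0, against 8311 of the 15271 genes tested. The members' median log2 fold change was 0.52 against 0.05 for all genes. Members share the same libraries, so the count carries no test. The median was 0.75 without shKitl replicate 3 and 0.21 with only the libraries at P14 and P15. In 1 of the 33 members the libraries did not overlap (Plk3, lower in shKitl), against 19.7% of all genes.

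The 9 with an unadjusted p under 0.05 were Psrc1 (log2 1.32, SE 0.46), Fas (1.26, SE 0.52), Eda2r (1.18, SE 0.47), Cdkn2b (1.07, SE 0.48), Bbc3 (1.00, SE 0.37), Ddb2 (0.86, SE 0.37), Sesn2 (0.76, SE 0.27), Xpc (0.56, SE 0.20) and Plk3 (-0.49, SE 0.16). Their edgeR adjusted p ran from 0.238 to 0.31. Trp53 was level (log2 -0.0017, SE 0.17), and Cdkn2a had 0.56 (SE 0.47, adjusted p = 0.572). Cdkn1a had 0.98 (SE 0.50), with 2 shKitl libraries at 366 and 358 CPM and the other at 91.9 CPM, within the shCtrl range of 78.9 to 229.8 CPM.

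That last library, shKitl replicate 3, held the lowest value of its group in 27 of the 33 members, against 40.8% of all genes. Of 6 mesothelial markers, 4 (Upk3b, Upk1b, Gpm6a and Nkain4) were also lowest in this library, Upk3b at 31.4, 27.4 and 1.24 TPM in shKitl replicates 1, 2 and 3. Msln, the most abundant, was not (81.1, 151 and 143 TPM), nor was Lrrn4, which was near 0, and the 6 summed to 146 to 210.2 TPM over the group. Their part in the spread of the members was not tested.

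Each group apart from Egfp_OE had a library in which most members were low, and in each it was the library with the highest P number. In shCtrl it was replicate 3 (P16), lowest for 24 of 33 members against 39.8% of all genes, while replicate 1 (P14) was highest for 27 against 49.0%. In shKitl it was replicate 3 (P15, above), and in Kitl_OE replicate 3 (P20), lowest for 27 against 38.5% of all genes. In Egfp_OE the counts were split, with replicate 2 (P18) highest for 14 members and lowest for 16, against 44.2% and 44.6% of all genes. These are counts over genes that share libraries, with 3 libraries a group, and carry no test.

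At equal P numbers, the hairpin lines stood side by side as follows. Cdkn1a was at 229.8 CPM in shCtrl and 358 CPM in shKitl at P14, and at 105 and 91.9 CPM at P15. Mdm2 was at 238 and 300.8 CPM at P14 and at 170.2 and 158 CPM at P15. In both genes shKitl was higher at P14 and slightly lower at P15. In the overexpression lines, Cdkn1a was at 283 CPM in Egfp_OE and 764 CPM in Kitl_OE at P18, and at 161 and 796 CPM at P19, so that Kitl_OE was higher at both, although with these libraries alone the Cdkn1a difference did not pass the test (edgeR adjusted p = 0.089).

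**Figure D4:**
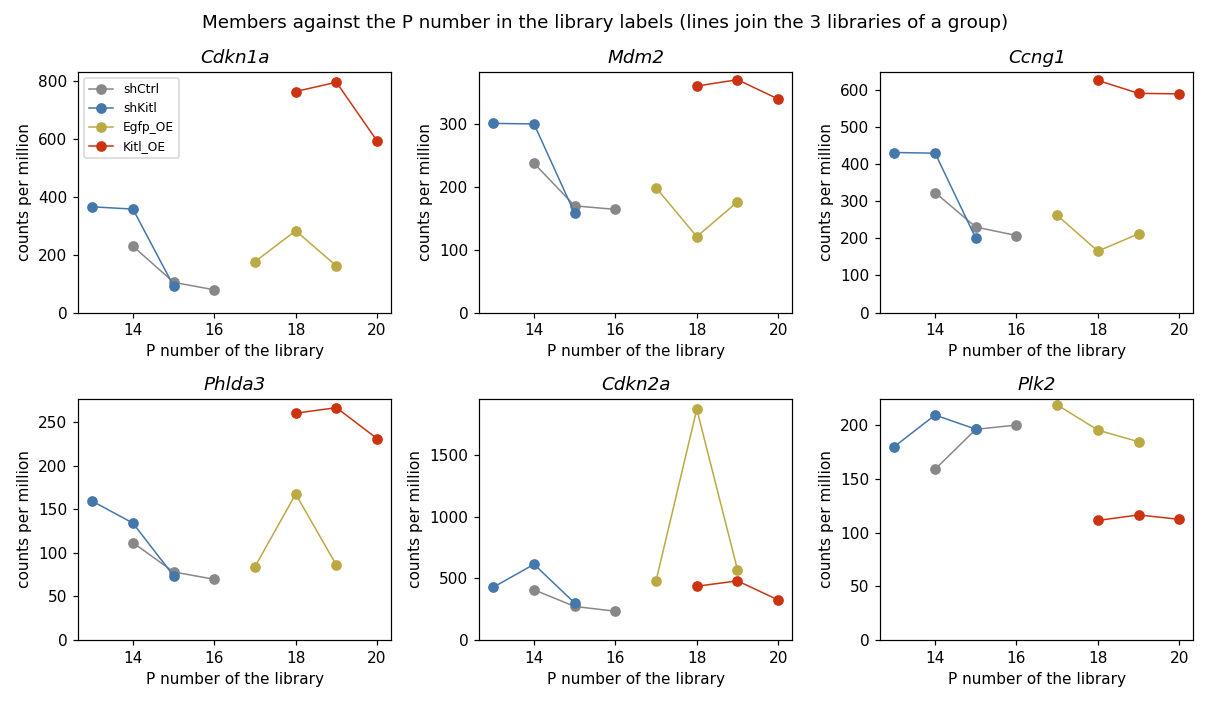
CPM of 6 members against the P number in the label of each library; lines join the 3 libraries of a group. Cdkn1a, Mdm2, Ccng1 and Phlda3 have their lowest hairpin-line values at P15 and P16, Kitl_OE stays above Egfp_OE at P18 and P19 in these 4, and Plk2 is lowest in all 3 Kitl_OE libraries.

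The control lines, Egfp_OE against shCtrl, gave the background that the hairpin vector, the transgene vector and the P numbers set, which cannot be told apart; it shares its samples with the other comparisons. No member was called by edgeR, against 1.25% of all genes, a background that ran from 0 genes without Egfp_OE replicate 3 to 771 without shCtrl replicate 1. An unadjusted p under 0.05 was found for 5 members (15.2%) and 24.4% of all genes. DESeq2 called 9.24% of the genes it gave an adjusted p and 2 members, Cdkn2a higher (log2 1.66, adjusted p = 0.00883) and Tnfrsf10b lower (-0.58, adjusted p = 0.0212). In edgeR these had log2 fold changes of 1.68 (SE 0.48, adjusted p = 0.0888) and -0.56 (SE 0.17, adjusted p = 0.0925). The libraries did not overlap in 10 members (3 higher, 7 lower in Egfp_OE), against 28.5% of all genes. The 3 were Cdkn2a, Bax and Ei24. The Cdkn2a estimate was 0.79 (edgeR adjusted p = 0.165) without Egfp_OE replicate 2 and 2.00 (adjusted p = 0.0462, the only member called then) without replicate 1. Bax had 0.91 with Egfp_OE replicate 2 and 0.33 without it.

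The overexpression and knockdown estimates were set against each other by the test of their difference, (Kitl_OE minus Egfp_OE) minus (shKitl minus shCtrl). Plk2 was the only member to pass (log2 -0.89, SE 0.20, edgeR adjusted p = 0.0121), against 14% of all genes; 10 members (30.3%) had an unadjusted p under 0.05, against 28.9% of all genes. Plk2 was lower in Kitl_OE and level in shKitl (log2 0.08, SE 0.14); its difference lost the call without Kitl_OE replicate 1 (adjusted p = 0.0545). Aen (1.33, SE 0.43, adjusted p = 0.0624), Xpc (0.80, SE 0.28, adjusted p = 0.0823), Cdkn2a (-1.80, SE 0.66, adjusted p = 0.0951) and Tnfrsf10b (0.63, SE 0.23, adjusted p = 0.0959) came next and did not pass. The Cdkn2a difference was -0.86 (adjusted p = 0.161) without Egfp_OE replicate 2. Aen passed without Egfp_OE replicate 2 (1.02, adjusted p = 0.00549) or replicate 3 (1.57, adjusted p = 0.0409). For the other risers, Cdkn1a (0.82, SE 0.70) and Mdm2 (0.70, SE 0.37) among them, a larger change with overexpression than with knockdown was not shown.

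**Figure D5:**
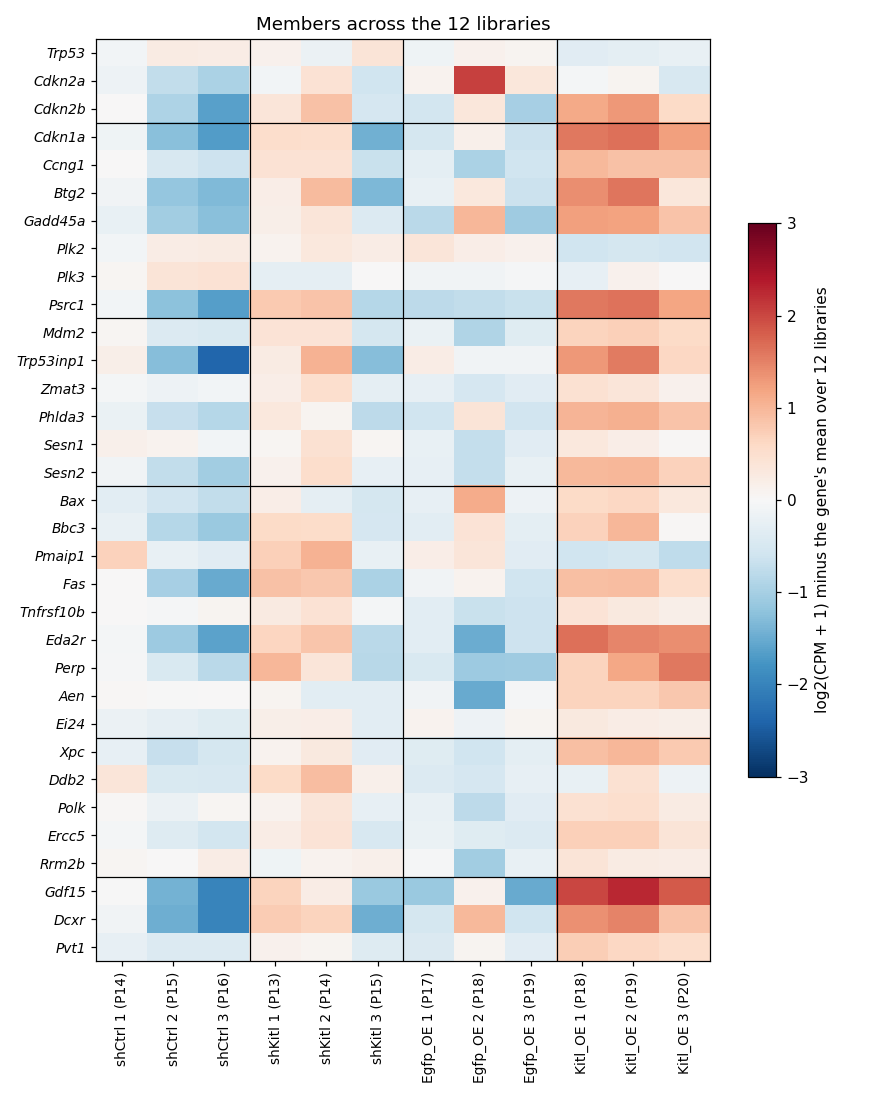
The 33 members (rows, by role, black lines between roles) in the 12 libraries (columns, with group, replicate and P number); colour is log2(CPM + 1) minus the gene's mean, red above and blue below. The Kitl_OE columns are red for most rows and blue for Trp53, Plk2 and Pmaip1; shCtrl replicates 2 and 3 and shKitl replicate 3 are blue for most rows.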

How the data were processed

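PolyA-selected RNA of 12 libraries was sequenced, 3 in each of 4 groups, which were taken from the sample titles. The authors deposited raw read counts per gene and, for the same libraries, TPM values (counts per gene length, scaled to a fixed total). Per the submitters' processing notes, STAR 2.5.2b and featureCounts from Subread 1.5.2 were used with GRCm38, and DESeq2 is listed; the sources used here give no strand setting, annotation or gene lengths, so that genes overlapping on opposite strands cannot be told apart. The 92 spike-in entries stayed out of library sizes and tests.

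The counts went into edgeR 4.0.16 under R 4.3.3: filterByExpr, TMM scaling, a robust quasi-likelihood fit with 1 coefficient per group over all 12 libraries (biological coefficient of variation 0.292), and Benjamini-Hochberg adjustment over the 15271 genes tested, called at 0.05. A standard error was the absolute log2 fold change over the square root of F, and CPM are counts per TMM-adjusted library size. An exact permutation test of 3 against 3 libraries cannot go below 0.1. The fit was also run on simulated counts with independent libraries and few changed genes. These lack the many changes and the outlying library seen here, so they do not measure how the fit performs on these data.

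The 33 members and the further gene lists were chosen with earlier results of these data known. All members are named, with library values for members called in any comparison and for Trp53, Cdkn2a and Cdkn2b; from each further list, up to 4 genes past the threshold with the largest change; and Kitl and Kit. Library values of Gadd45a, Bax, Pmaip1 and Cdkn1c were added after the values were seen. Coordinates are from GENCODE M21 (GRCm38), which held all 33 members.

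The alternatives changed the scaling in edgeR (DESeq2 size factors, library totals, spike-in totals), the tool (DESeq2 1.42.0, limma-voom, and limma 3.58.1 on log2(TPM + 1) and log2(TPM + 0.1)), the filter (none, or 5 CPM in 3 libraries), the threshold (0.01, or a 2-fold change besides) and the model (a block for the replicate number, a P number covariate, or the compared groups alone), or left a library out. Keeping only libraries at P numbers found in both compared groups was an alternative chosen after seeing the data.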

Additional observations from a re-analysis of the deposited data

Results flagged for a closer look

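Plk2 had different effects in the overexpression and knockdown comparisons by the test of their difference. It was lower in Kitl_OE than in Egfp_OE in all 3 libraries (log2 -0.82, SE 0.14) and level between shKitl and shCtrl (log2 0.08, SE 0.14), a difference of -0.89 on the log2 scale (SE 0.20, edgeR adjusted p = 0.0121). Of 26 alternatives 18 called it; those that did not included spike-in scaling (edgeR adjusted p = 0.614) and leaving out Kitl_OE replicate 1 (0.0545). Groups of 3 libraries were not tested for single outlying samples.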

How the results depend on the processing

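Of the members called in the overexpression comparison, 20 with the fit as described, 11 were called with spike-in totals, 13 at an adjusted p of 0.01, 12 when a log2 change of 1 was also required, 11 with libraries at matched P numbers only (chosen after seeing the data), and 17 to 22 with a library left out; the other settings stayed within 1.5 times. No knockdown setting called a member. In the control lines 2 were called by DESeq2 and 0 to 1 with a library left out. In the difference of the comparisons, where 1 was called, 0 were called with spike-in totals, either limma fit on TPM, no filter, an adjusted p of 0.01, a log2 change of 1 or matched P numbers, 5 by DESeq2, 2 by limma-voom, 3 with the P number as a covariate, and 0 to 3 with a library left out.

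The correlations did not settle whether the replicate numbers pair the libraries. For same-numbered libraries they ran from 0.0406 to 0.28 (overexpression), -0.384 to 0.582 (knockdown) and -0.0877 to 0.277 (control lines). In the overexpression 5 of 6 libraries correlated best with their own number, in the knockdown 3 and in the control lines 2. With the replicate block, 24 members were called in the overexpression, 0 in the knockdown, 0 in the control lines and 2 in the difference.

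Over all members and comparisons signs changed in 115 values (5 in the overexpression, 14 in the knockdown, 49 in the control lines, 47 in the difference), none of them called and none in a called result (smallest adjusted p 0.218). Of the 67 single-gene results in the text, 5 had such values, 14 in all. Plk3 in the overexpression was 0.06 on the log2 scale, but -0.018 with library totals, -0.068 with the P covariate and -0.0039 to 0.19 with a library left out (lowest without Kitl_OE replicate 2). Bax was 0.13, but -0.10 to 0.72 with a library left out, and -0.10 and -0.07 without Egfp_OE replicates 1 and 3. Trp53 in the knockdown was -0.0017, but 0.025 with library totals, 0.11 with the P covariate, 0.020 at matched P numbers and -0.16 to 0.14 with a library left out. Cdkn2b in the control lines was 0.40, but -0.24 with spike-in totals and -0.068 to 0.96 with a library left out (lowest without Egfp_OE replicate 2). In the difference it was 0.28, but -0.27 to 0.81 with a library left out (lowest without shCtrl replicate 1).

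Spike-in totals moved the median log2 fold change of all genes in the control lines from 0.05 to -0.34. Calls over all genes varied too: for the overexpression 5236, but 2351 with spike-in totals and 2333 with matched P numbers; for the knockdown 0, but 427 by DESeq2; for the control lines 191, but 1461 by DESeq2; and for the difference 2131, but 642 with matched P numbers. Counting error and the spread between libraries were not separated for the members, of which Perp and Ddb2 had the lowest mean TPM. The causes of these shifts were not tested.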

Other observations

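Genes that carry the cell from G1 into S phase, and genes used as marks of senescence, were counted beside the members. Of 14 G1 cyclins, kinases and RB family genes, 4 rose and 2 fell in Kitl_OE against Egfp_OE (edgeR, adjusted p under 0.05), where 15.4% of all genes rose and 18.9% fell. Ccnd2, which encodes cyclin D2, stood at 115, 146 and 139 CPM in Egfp_OE and at 641, 597 and 718 CPM in Kitl_OE (log2 2.29, SE 0.21, edgeR adjusted p = 2.35e-05), and its difference from the knockdown also passed (log2 2.00, adjusted p = 0.00103). Rbl2, an RB relative (0.89), Ccnd3 (0.80) and Cdk2 (0.36) rose, and Ccne2 (-0.64) and E2f3 (-0.51) fell. Without Kitl_OE replicate 1 or 2 only 2 of the 14 were called, and 3 without shCtrl replicate 2 or Kitl_OE replicate 3.

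Of 9 tested senescence-associated genes none rose and 3 fell in Kitl_OE, where 15.4% of all genes rose and 18.9% fell. These were Igfbp3 (log2 -3.58), and Hmgb2 (-1.04) and Hmgb1 (-0.74), chromatin proteins known to be lost from senescent nuclei. Igfbp3 stood at 30.3, 133 and 37.1 CPM in Egfp_OE, with replicate 2 apart, and at 9.81, 3.59 and 3.38 CPM in Kitl_OE; without that library the log2 fold change was -2.58 (edgeR adjusted p = 0.0028). Lmnb1, Il6 and Glb1 did not pass the test in this comparison. Between the control lines, edgeR called 1 of the 9 higher and 1 lower in Egfp_OE than in shCtrl, against 1.25% of all genes. The log2 fold changes of the 9 between those lines ran from -2.77 to 3.12.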
